A study of Mus musculus with 4 samples.

Results

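The genes described here encode the islet hormones other than insulin: glucagon (Gcg), somatostatin (Sst), pancreatic polypeptide (Ppy), peptide YY (Pyy) and ghrelin (Ghrl). They were chosen by name and are 5 of the 32285 genes in the count matrices. Their levels were read on barcodes with at least 1000 UMIs (unique transcript molecules), by genotype and by cell class, and set beside their levels on near-empty barcodes of 10 to 99 UMIs, which carry free RNA from the suspension. Levels are shares of UMIs. The chemistry counts transcript 3′ ends, so shares were not divided by gene length.

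Islets of C57BL/6 mice, either wild type or Malat1-/- (without a gene for a nuclear long non-coding RNA), were isolated with collagenase, cultured, given the solvent DMSO or the dioxin TCDD, dispersed and profiled with the 10x Genomics 3′ v3 kit. There were 4 libraries, 1 for each genotype and treatment. Only the wild-type TCDD library and the Malat1-/- TCDD library (called Malat1-null) were analysed here, so TCDD was common to both and its own effect was not measured. The TCDD dose, the exposure time, the age of the mice and the number of mice in a library are not given in the labels. With 1 library per genotype nothing could be tested. All intervals are exact 95% intervals and cover counting error only, and differences between mice, cultures or library preparations cannot be told apart from a difference between genotypes.

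Glucagon from alpha cells raises blood glucose, and somatostatin from delta cells inhibits the secretion of neighbouring islet cells. Pancreatic polypeptide from PP cells and peptide YY belong to the neuropeptide Y family; peptide YY is best known as a gut hormone and is also made in islets. Ghrelin, a stomach hormone that stimulates appetite, marks the rare epsilon cells of the islet and is acylated by the enzyme encoded by Mboat4.

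All 5 genes are protein-coding and lie on the minus strand of mm10 (GENCODE M21): Gcg at chr2:62474530-62483650, Sst at chr16:23889573-23890958, Ppy at chr11:102099930-102101319, Pyy at chr11:102106676-102107832 and Ghrl at chr6:113716119-113719880. Ppy and Pyy are neighbours, 5356 bases apart with 0 annotated genes between them. Ghrl overlaps Gm26982 and Gm44033 on the other strand, and whether the counting used strand is not given in the sources used here, so its UMIs are uncertain in that respect. The 250 bases before the transcription starts of the 4 abundant hormone genes are shown because Ppy and Pyy were high on the same barcodes while Gcg and Sst mostly were not. They come from RefSeq on GRCm38.p6, minus strand, at chr2:62483654-62483903, chr16:23890845-23891094, chr11:102101320-102101569 and chr11:102107833-102108082, and are written 5′ to 3′ with matches in capitals to TATAAA (the TATA box core), TGACGTCA (the cyclic AMP response element) or TAATTA (a homeodomain core), searched on both strands.
Gcg: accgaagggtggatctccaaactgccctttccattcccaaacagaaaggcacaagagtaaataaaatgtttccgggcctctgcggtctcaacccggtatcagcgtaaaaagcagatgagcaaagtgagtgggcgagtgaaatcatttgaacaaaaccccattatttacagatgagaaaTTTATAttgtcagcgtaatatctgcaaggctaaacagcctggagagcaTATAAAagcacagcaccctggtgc
Sst: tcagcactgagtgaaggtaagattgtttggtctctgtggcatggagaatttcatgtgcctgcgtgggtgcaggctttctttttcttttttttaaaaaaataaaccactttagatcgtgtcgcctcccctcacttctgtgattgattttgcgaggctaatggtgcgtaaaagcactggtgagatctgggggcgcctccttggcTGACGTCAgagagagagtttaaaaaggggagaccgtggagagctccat
Ppy: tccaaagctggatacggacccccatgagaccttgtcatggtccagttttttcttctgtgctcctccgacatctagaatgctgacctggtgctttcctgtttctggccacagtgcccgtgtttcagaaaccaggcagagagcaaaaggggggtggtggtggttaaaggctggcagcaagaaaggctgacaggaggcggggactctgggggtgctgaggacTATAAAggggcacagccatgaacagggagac
Pyy: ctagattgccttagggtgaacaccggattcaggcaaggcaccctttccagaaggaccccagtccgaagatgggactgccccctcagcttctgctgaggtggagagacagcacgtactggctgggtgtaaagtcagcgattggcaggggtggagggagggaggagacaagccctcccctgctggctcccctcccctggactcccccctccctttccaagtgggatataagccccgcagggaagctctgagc
Gcg held TATAAA 24 bases before its start and the reverse of it, TTTATA, 72 bases before. Ppy held TATAAA 31 bases before its start and Sst held TGACGTCA 48 bases before. The RefSeq start of Sst lies inside the GENCODE span given above. The part of its window at chr16:23890845-23890958, which holds this match, is thus within that span. None of the 3 motifs occurred in this window of Pyy or Ghrl, and TAATTA occurred in none of the 5. Pyy had 2 listed starts and Ghrl 4, against 1 each for Gcg, Sst and Ppy. Only 1 window was searched per gene. Of 27025 RefSeq promoter windows of this length, 12.97% held TATAAA, 1.62% TGACGTCA and 4.90% TAATTA. A match is a description of letters only.

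The wild-type library held 2166 barcodes with at least 1000 UMIs (median 26116 UMIs) and the Malat1-null library 3198 (median 34038), of 81872519 and 134950186 UMIs in all. The libraries shared 1 such barcode sequence, which was high for no hormone. Malat1 itself had 25540 CPM (UMIs scaled to a fixed total) in alpha-like barcodes of the wild type, against 2.14 CPM in the Malat1-null ones. The label is beta cell, but whole islets were dispersed, and the barcodes grouped into 909 and 1788 beta-like, 37 and 81 alpha-like, 26 and 28 PP-like, 22 and 47 delta-like and 1027 and 622 non-endocrine barcodes (wild type first, as in every pair of values below). Classes came from clusters built without the 5 hormone genes, Ins1, Ins2 and Iapp and were named from other marker genes. The limit for calling a cluster mixed was lowered after a cluster named beta was seen to lead with Rbp4 and Sst, so Sst had a part in which barcodes count as mixed and not as beta-like. Of the naming markers, 8 of 8 for alpha, 7 of 7 for delta and 4 of 6 for PP cells reached 20 CPM in their class in both libraries, with the PP marker Aqp4 at 0. The PP list also reached 4 of 6 in alpha- and delta-like barcodes of both libraries. It summed to 1354 and 1308 CPM in PP-like, 1245 and 1334 CPM in delta-like and 698.2 and 754.5 CPM in alpha-like barcodes. This sum therefore did not set PP-like apart from delta-like barcodes. A further 19 and 131 barcodes had markers of at least 2 hormone cell types and are called mixed, and 126 and 501 stayed unnamed.

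Summed over all barcodes of 1000 or more UMIs, Gcg took 0.347% of wild-type UMIs and 0.350% of Malat1-null UMIs. Ppy was the most abundant of the 5 at 0.6003% and 0.628%. Pyy was at 0.284% and 0.353%. Sst was at 0.110% and 0.172%, the largest relative gap among the 4 abundant hormones. Ghrl was at 1.44e-05% (11 UMIs) and 0.00641% (7605 UMIs). Ins2, for scale, was at 28.2% and 36.7%. In bulk sums of this kind, more cells of a type and more hormone RNA per cell cannot be told apart.

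Free RNA held the same hormones. On barcodes of 10 to 99 UMIs Gcg was at 0.125% and 0.0984%, Sst at 0.0696% and 0.0971%, Ppy at 0.178% and 0.172%, Pyy at 0.106% and 0.102%, and Ghrl at 0.000219% and 0.000711%. The order Ppy, Gcg, Pyy, Sst of wild type held on these barcodes as on the large ones, while in Malat1-null Gcg, Pyy and Sst lay within 0.0971% and 0.102%. The libraries differed in how small barcodes were spread: 64835 and 48096 had 10 to 99 UMIs, and 4932 and 45264 had 100 to 299. The 10 to 99 window may thus cover unlike parts of the near-empty barcodes. At 100 to 299 UMIs Gcg was at 0.0653% and 0.0290%, Sst at 0.0320% and 0.0510%, and Ppy at 0.0869% and 0.0502%. Pyy was at 0.0530% and 0.0378% there, and Ins2 at 13.3% and 43.9%. At 300 to 999 UMIs Gcg fell to 0.0163% and 0.0133%, and Ppy to 0.0205% and 0.0168%. Gcg, Sst, Ppy and Pyy had their highest shares on barcodes of 10000 to 49999 UMIs, where Gcg reached 4.15% (10000 to 19999 UMIs, Malat1-null) and Ppy 2.36% (20000 to 49999 UMIs, wild type). Above 50000 UMIs, where 658 of 717 and 856 of 970 barcodes were beta-like, Gcg was at 0.0785% and 0.183%.

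**Figure D1:**
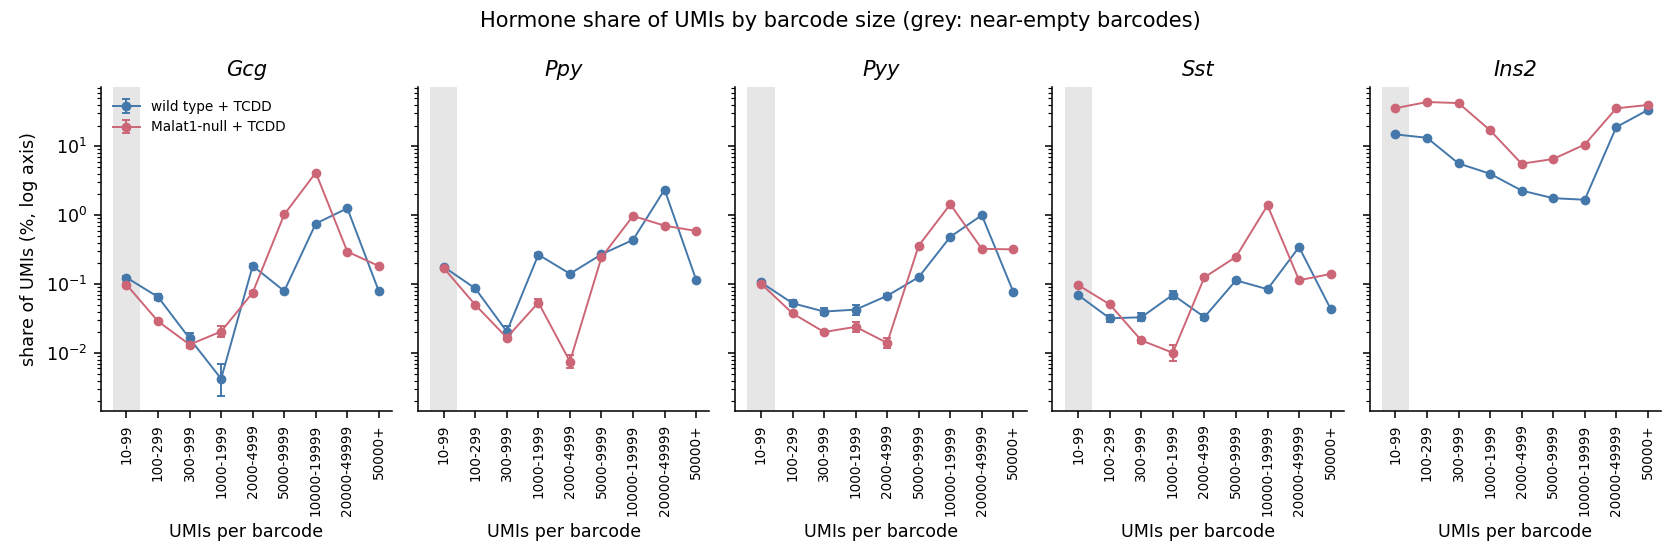
Share of UMIs from Gcg, Ppy, Pyy, Sst and Ins2 (y axis, per cent, log scale) by UMIs per barcode (x axis) in the wild-type and Malat1-null TCDD libraries. Points are sums over all barcodes of a size with exact 95% counting intervals, and grey marks barcodes of 10 to 99 UMIs. Gcg in wild type fell from 0.125% on near-empty barcodes to 0.0163% at 300 to 999 UMIs. Gcg, Sst, Ppy and Pyy were highest between 10000 and 49999 UMIs, while Ins2 made up 33.6% and 39.8% above 50000 UMIs. Ghrl is not drawn.

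Nearly all hormone UMIs sat on few barcodes. A barcode was called high for a hormone when that gene held at least 1% of its UMIs and at least 5 times its near-empty share. Gcg was high on 54 of 2166 barcodes (2.49%, interval 1.88 to 3.24) and on 155 of 3198 (4.85%, 4.13 to 5.65). Sst was high on 33 (1.52%, 1.05 to 2.13) and 113 (3.53%, 2.92 to 4.23). Ppy was high on 69 (3.19%, 2.49 to 4.01) and 142 (4.44%, 3.75 to 5.21), and Pyy, the hormone found high most often in both libraries, on 93 (4.29%, 3.48 to 5.23) and 215 (6.72%, 5.88 to 7.65). These barcodes held between 92.6% and 99.5% of the UMIs of each of the 4 genes in each library. The share of all barcodes that were high was larger in Malat1-null for all 4 hormones, and for Ppy the intervals overlapped. The libraries differed in what these barcodes were. Beta-like ones were 909 of 2166 and 1788 of 3198, and the non-endocrine ones counted above were a larger part of the wild-type library. Shares among endocrine barcodes only were not computed. The part of this make-up in the gaps between the libraries was not tested. The 1% limit fell in a gap for wild-type Sst, whose nearest values were 2.13% and 0.175%, and in a continuum for Malat1-null Pyy, whose nearest values were 1.00% and 0.997%. Between 0.1% and 1% lay 5 barcodes for Sst in wild type but 105 for Pyy in Malat1-null.

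Most hormone-high barcodes were high for more than 1 hormone. Of 118 wild-type barcodes high for any of the 5 genes (5.45% of barcodes), 28 were high for 1, 51 for 2, 37 for 3 and 2 for 4. Of 305 in Malat1-null (9.54%), 98 were high for 1, 103 for 2, 94 for 3 and 10 for 4. The most frequent single-hormone state was Gcg alone, on 21 and 62 barcodes, and Ppy alone was rare, on 1 and 7. The most frequent combinations were Ppy with Pyy (28 and 36), Sst with Ppy and Pyy (20 and 43), Gcg with Ppy and Pyy (17 and 43), Gcg with Pyy (13 and 28) and Sst with Pyy (9 and 34).

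**Figure D2:**
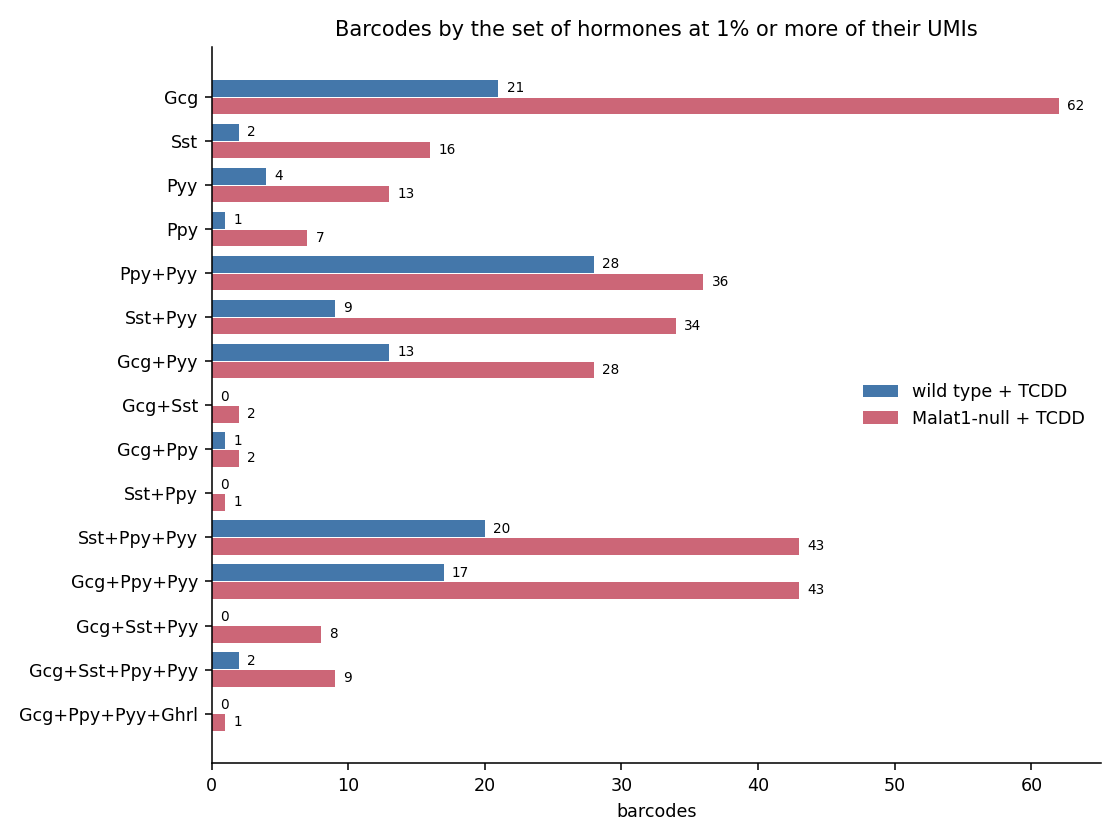
Number of barcodes (x axis) for each set of hormones at 1% or more of a barcode's UMIs (y axis), in the wild-type (2166 barcodes) and Malat1-null (3198 barcodes) TCDD libraries. Sets with Pyy fill most of the chart, Ppy alone has 1 and 7 barcodes, and sets with both Gcg and Sst have 2 and 19 in all.

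Ppy was seldom high without its neighbour Pyy. Of Ppy-high barcodes 67 of 69 (97.1%, 89.9 to 99.7) and 132 of 142 (93.0%, 87.4 to 96.6) were also Pyy-high. The reverse share was lower: 72.0% (61.8 to 80.9) and 61.4% (54.5 to 67.9) of Pyy-high barcodes were Ppy-high. Pyy also went with the hormones of other chromosomes. Of Sst-high barcodes, 31 of 33 (93.9%) and 94 of 113 (83.2%) were Pyy-high, and of Gcg-high barcodes 32 of 54 (59.3%) and 89 of 155 (57.4%). Ppy was high on 66.7% and 46.9% of Sst-high barcodes and on 37.0% and 35.5% of Gcg-high ones.

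Gcg and Sst were together on few barcodes: 2 of 54 Gcg-high barcodes in wild type (3.70%, 0.452 to 12.8) and 19 of 155 in Malat1-null (12.3%, 7.54 to 18.5). Both wild-type barcodes and 17 of the Malat1-null ones lay in the cluster with markers of alpha, beta and delta cells, and the other 2 were delta-like. Over all barcodes high for both Gcg and Sst, the median Ins2 share was only 0.124% and 0.677%. Of the 10 beta markers, 5 and 9 reached 20 CPM in the cluster. That cluster had a median of 48139 and 49684 UMIs, against 28050 and 15490 in alpha-like and 26088 and 17533 in delta-like barcodes. In beta-like barcodes the median was 62241 and 48831. Scrublet, a doublet caller, marked 0 of the 150 mixed barcodes, but it marked 1.06% and 0.219% of all barcodes, and in the larger library under 0.5%, so its calls say little there.

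Ins2 was also higher in Malat1-null off these barcodes: on near-empty ones it was at 14.9% and 35.7%, and of the barcodes high for none of the 5 hormones 951 of 2048 and 2049 of 2893 had 10% or more. Ins2 made up 10% or more of the UMIs on 20 of 118 hormone-high barcodes in wild type and on 136 of 305 in Malat1-null. Without such barcodes Gcg was high on 46 and 103, Sst on 28 and 57, Ppy on 65 and 90, and Pyy on 82 and 131 (a setting chosen after seeing the data). Ppy with Pyy then stood on 63 and 89 barcodes, Sst with Pyy on 27 and 56, and Gcg with Sst on 2 and 11. The mixed barcodes with alpha and beta markers had a median Ins2 share of 20.1% and 30.2%, and those with beta and delta markers 25.3% and 32.1%. They held 9.06% and 21.7% of all Gcg UMIs and 14.6% and 39.4% of all Sst UMIs respectively. Their median UMIs, 67337 to 78279, were above those of the alpha-, PP- and delta-like classes (15490 to 36728). Beta-like barcodes had medians of 62241 and 48831 UMIs, nearer to those of the mixed ones. The part of cells captured together in these barcodes was not tested.

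Each abundant hormone was highest in its own class, although the genes had been left out of the clustering. Gcg made up 20.2% of the UMIs of alpha-like barcodes in wild type and 16.4% in Malat1-null. Per barcode its share ran from 0% to 40.2% with a median of 19.5% in wild type, and from 0% to 27.8% with a median of 16.5% in Malat1-null, so the ranges overlapped widely. It was high on 36 of 37 and 80 of 81 alpha-like barcodes, and 1 barcode in each library had 0 Gcg UMIs. Gcg led the other hormones on 34 and 74 of them. Alpha-like barcodes held 80.2% and 55.2% of all Gcg UMIs. In PP-like barcodes Gcg was at 1.32% and 1.95%, carried by 6 of 26 and 11 of 28 barcodes that were high, with medians of 0.00315% and 0.00459%. In wild-type delta-like barcodes it was at 0.00348%, which is 2.79% of its near-empty share.

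Ppy had the highest share of the 5 genes summed over a class. It made up 36.0% of the UMIs of PP-like barcodes in wild type and 35.1% in Malat1-null, with ranges per barcode of 4.36% to 53.1% (median 37.1%) and 0.00701% to 54.7% (median 38.1%). It was high on 26 of 26 and 26 of 28, and led the other hormones on 24 and 25. In delta-like barcodes it was at 4.82% and 5.89%, high on 16 of 22 and 34 of 47. In alpha-like barcodes it was at 4.71% and 3.04%, but unevenly: medians were 0.216% and 0.0996%, 13 of 37 and 23 of 81 were high, and the 5 barcodes with the most Ppy held 87.3% and 79.6% of its UMIs there. The 3 and 4 alpha-like barcodes at 10% or more reached 33.5% and 27.2%, inside the range of PP-like barcodes.

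Pyy was spread over all 3 classes. In PP-like barcodes it was at 10.3% and 11.1% (medians 10.8% and 10.4%), in delta-like ones at 7.53% and 6.49% (medians 7.46% and 5.91%) and in alpha-like ones at 3.52% and 2.28% (medians 2.11% and 1.29%). Every delta-like barcode was Pyy-high, 22 of 22 and 47 of 47, with a lowest share of 2.28% and 1.63%. Of alpha-like barcodes 25 of 37 and 46 of 81 were Pyy-high. The balance between the neighbouring genes differed by class: Ppy exceeded Pyy on 24 of 26 and 25 of 28 PP-like barcodes, whereas Pyy exceeded Ppy on 31 of 37 and 69 of 81 alpha-like and on 19 of 22 and 36 of 47 delta-like barcodes. PP-like barcodes held only 42.5% and 28.7% of all Pyy UMIs, against 70.4% and 50.9% of all Ppy UMIs.

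**Figure D3:**
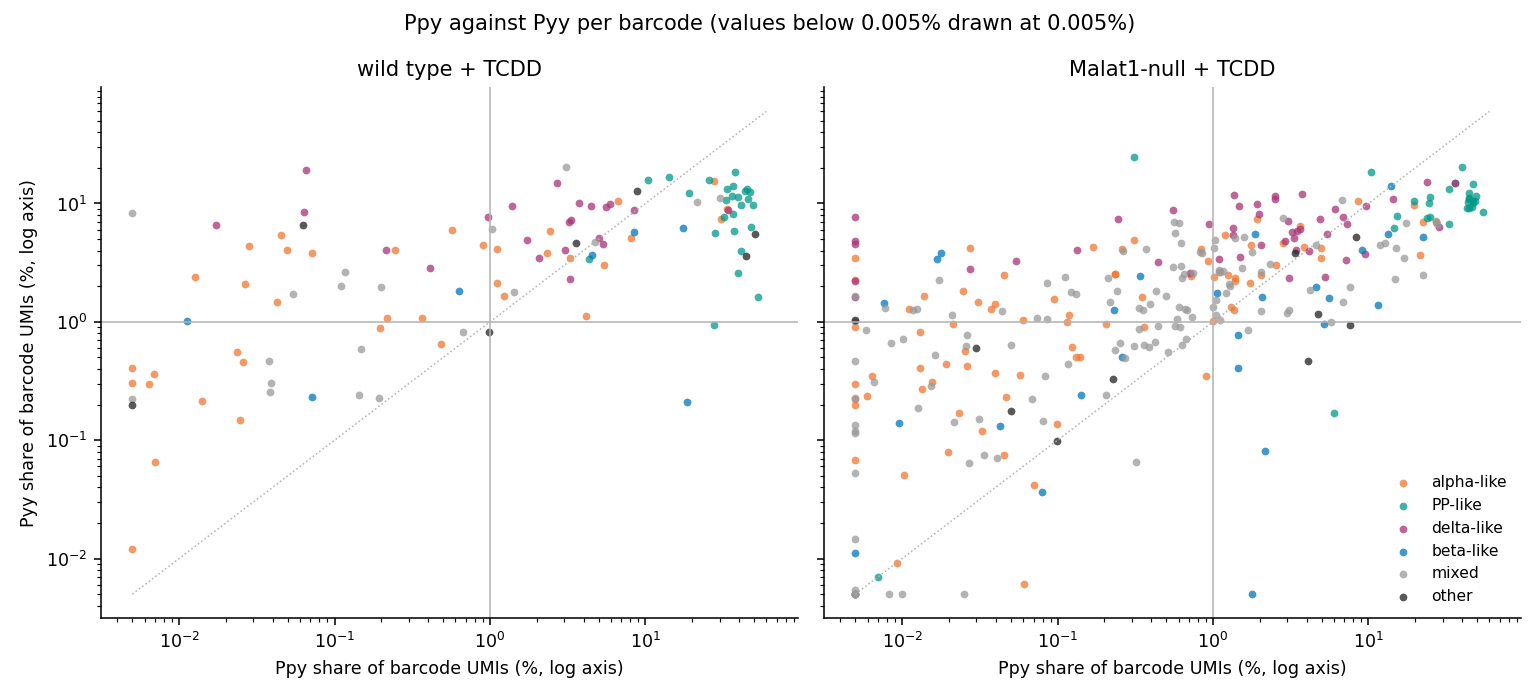
Pyy share (y axis) against Ppy share (x axis) of the UMIs of each barcode that was high for a hormone or lay in an alpha-, PP-, delta-like or mixed class, per cent on log axes, coloured by class; grey lines mark 1% and the dotted line equal shares. PP-like barcodes lie below the dotted line at high Ppy (24 of 26 and 25 of 28), and most alpha- and delta-like barcodes lie above it.

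Sst was high in delta-like barcodes and far below its near-empty share in alpha-like ones. It held 11.4% and 8.84% of delta-like UMIs, with ranges of 3.43% to 26.5% (median 10.3%) and 1.60% to 25.7% (median 8.82%), and was high on all 22 and all 47. In alpha-like barcodes it was at 0.00161% and 0.000785%, which is 2.31% and 0.809% of its near-empty share. In PP-like barcodes it was at 0.0816% and 0.00213%; 1 wild-type barcode with 10.1% Sst made most of the first value, which was 0.0101% without it. Amylin (Iapp), the peptide that beta cells co-secrete with insulin, was at 5.80% and 5.28% in delta-like barcodes, near its 6.10% and 4.90% in beta-like ones, while Ins2 was at 0.101% and 0.384% there.

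**Figure D4:**
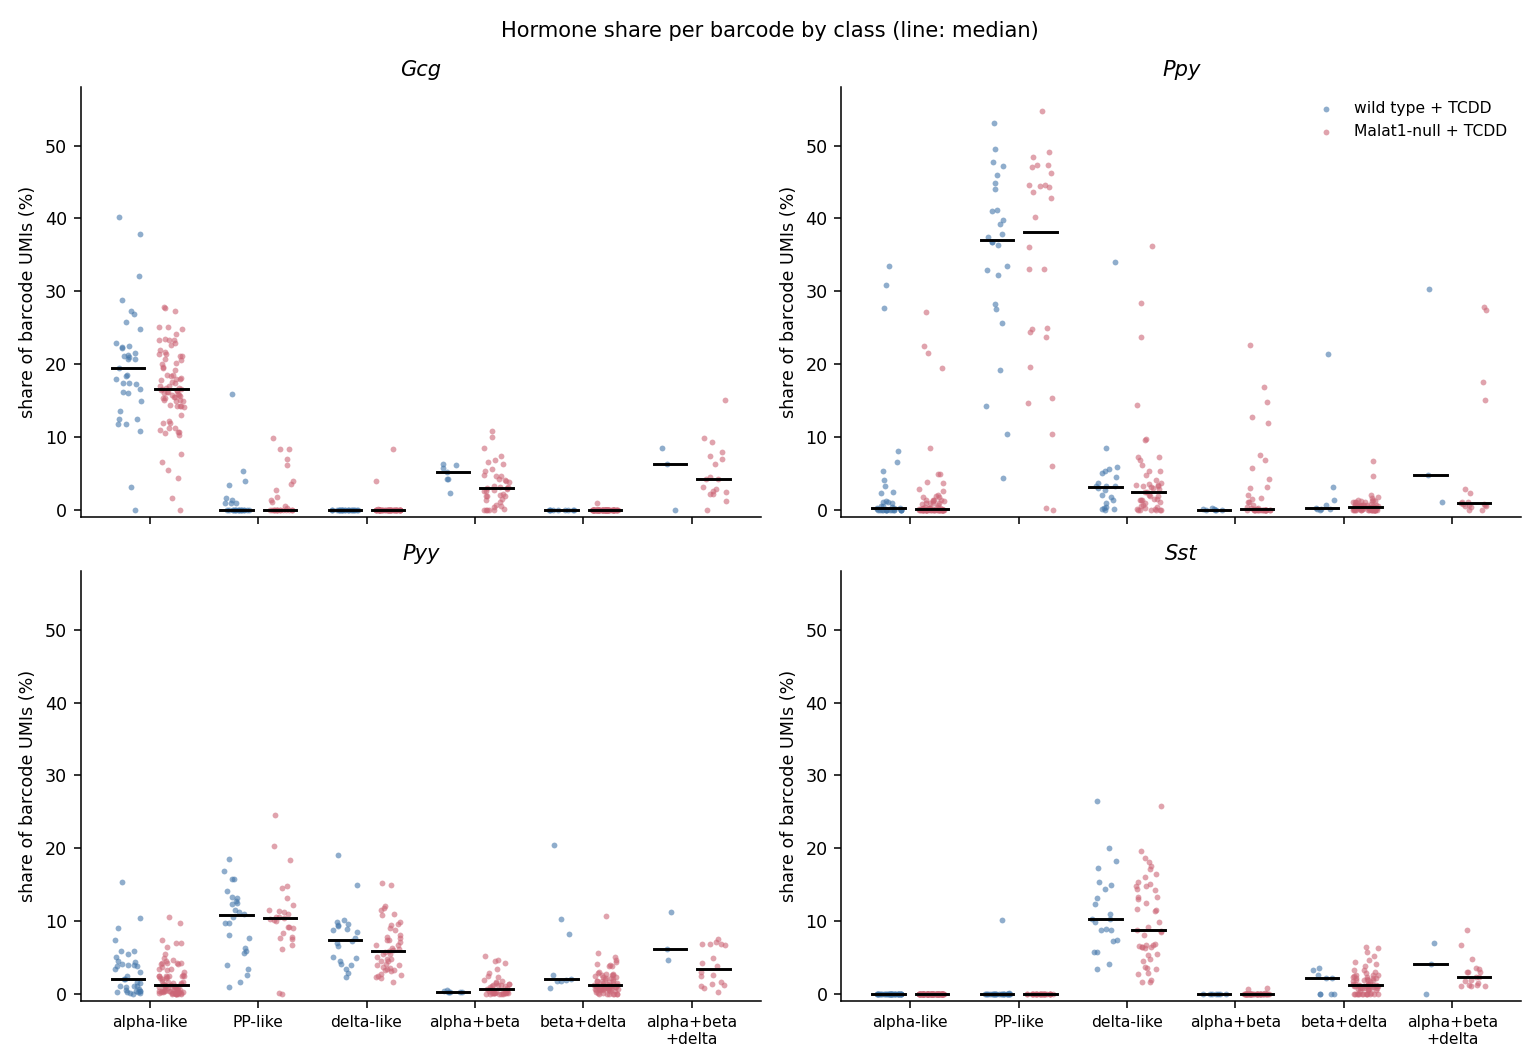
Share of a barcode's UMIs (y axis, per cent) for Gcg, Ppy, Pyy and Sst in the alpha-, PP- and delta-like classes and the 3 mixed classes, each point 1 barcode and each line a median, for the wild-type and Malat1-null TCDD libraries. Sst is above 1% in all 22 and 47 delta-like barcodes, Pyy is above 1% in the same barcodes, and Ppy in alpha-like barcodes has medians of 0.216% and 0.0996% with a few values above 20%.

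Ghrl was present at more than trace level on 1 barcode. In wild type its 11 UMIs were spread over 10 barcodes with at most 2 each. In Malat1-null 7555 of 7605 UMIs came from 1 PP-like barcode of 101742 UMIs, in which Ghrl made up 7.43%, Ppy 24.4%, Pyy 10.2% and Gcg 2.74%, while Sst was at 0 and Ins2 at 0.153%. This barcode was also the largest of the 28 PP-like barcodes, whose median was 27890 UMIs. The other 48 barcodes with a Ghrl UMI had at most 2. A count of 0 Ghrl-high barcodes in 2166 allows a share of up to 0.139% in wild type by a limit of 3 counts, or 0.170% by the exact interval, and the share in Malat1-null was 0.0313% (0.000792 to 0.174), so a difference was not detectable at this number of barcodes. Mboat4, which encodes the ghrelin acyltransferase, was at no more than 1.00 CPM in the alpha-, PP-, delta- and beta-like classes, and the Ghrl barcode's class had 0 Mboat4 UMIs in both libraries.

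Non-endocrine barcodes also carried hormone UMIs. In T or NK cell-like barcodes Gcg was at 0.00143% and 0.00280%, Sst at 0.000915% and 0.00109%, Ppy at 0.00326% and 0.00466%, and Pyy at 0.00114% and 0.00186%. These levels were between 1.08% and 2.84% of the near-empty shares. The T or NK cell-like barcodes had 0 that were high for a hormone, as had the B cell-like, acinar-like and mesenchymal-like ones. Exceptions in other classes came from single barcodes: 1 wild-type ductal-like barcode with 8.69% Gcg, 1 Malat1-null macrophage-like barcode with 6.61% Gcg, 8.32% Ppy and 5.21% Pyy, and 1 Malat1-null endothelial-like barcode with 1.03% Pyy.

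Few beta-like barcodes were high for a non-insulin hormone. Gcg was high on 1 of 909 and 7 of 1788, Sst on 0 and 2, Ppy on 4 and 15, and Pyy on 5 and 15, in all 7 and 26 barcodes. The Ppy-high ones held 94.1% and 91.5% of the Ppy UMIs of their class, and the Pyy-high ones 84.6% and 74.2% of its Pyy UMIs. For each gene, only the barcodes high for that same gene were then left out. Gcg was at 0.000950% and 0.00411%, Sst at 0.000355% and 0.00317%, Ppy at 0.00304% and 0.00717%, and Pyy at 0.00337% and 0.0119%. Barcodes high only for another hormone stayed in, such as Malat1-null ones with 0.8135% Sst or 0.6115% Gcg. Of these class levels, only the Malat1-null values for Sst and Pyy stood more than 2-fold above the T or NK cell-like level of their own library. In wild type only Pyy did. Acinar-like barcodes were not part of this comparison. Median UMIs were 62241 and 48831 in beta-like but 5107 and 3388 in T or NK cell-like barcodes. An equal share thus stands for more hormone UMIs on a beta-like barcode, and these shares do not set its free-RNA level. The part of free RNA in them was not tested.

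The genotypes were compared class by class on summed UMIs. Past 2-fold here means a ratio above 2 or below its inverse whose interval also clears 1.5-fold, for genes that reach 50 CPM in either library and total 50 UMIs or more. In alpha-like barcodes 60 of 2769 genes passed (2.17%, made of 0.867% higher and 1.3% lower in Malat1-null), and of the 3 hormones with enough UMIs none did. Gcg was lower in Malat1-null by a ratio of 0.812 (0.807 to 0.817), Ppy by 0.647 (0.639 to 0.655) and Pyy by 0.648 (0.638 to 0.657), while the median log2 ratio of all tested genes was 0.21. Among alpha-like barcodes that were not Ppy-high, Ppy was at 0.124% and 0.120%. Different clusters held most alpha-like barcodes of the 2 libraries, 35 of 37 in 1 cluster and 78 of 81 in another, both led by Gcg, Ttr and Gpx3, and Gcg was lower in Malat1-null within each. It was at 18.8% in the 35 wild-type and 16.4% in the 3 Malat1-null barcodes of the first cluster, and at 39.0% in the 2 wild-type and 16.4% in the 78 Malat1-null barcodes of the second, so each comparison rests on 2 or 3 barcodes of a library. Over all Gcg-high barcodes, whatever their cluster, the ratio was 0.5001; mixed alpha and beta barcodes were 33 of the 155 in Malat1-null and 7 of the 54 in wild type.

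In PP-like barcodes, which came from 1 cluster led by Ghrl, Ppy and Pyy, 33 of 2059 genes passed (1.6%, made of 0.826% higher and 0.777% lower). Ppy had a ratio of 0.975 (0.971 to 0.980) and Pyy of 1.08 (1.07 to 1.09), neither past 2-fold. Past the limit, Sst was lower and Ghrl higher in Malat1-null. Without the single Sst-rich wild-type barcode Sst was at 0.0101% against 0.00213% (90 and 23 UMIs), and without the Ghrl-rich barcode Ghrl had 0 and 1 UMIs. In delta-like barcodes, from 1 cluster led by Sst, Rbp4 and Arg1, 42 of 3114 genes passed (1.35%, made of 0.739% higher and 0.61% lower). Sst had a ratio of 0.774 (0.767 to 0.782), Pyy of 0.861 (0.851 to 0.872) and Ppy of 1.22 (1.20 to 1.24). Over all hormone-high barcodes whatever their cluster, mixed ones included, the ratios were 0.485 for Sst, 0.577 for Ppy and 0.608 for Pyy. Gcg was past 2-fold, at 0.00348% against 0.555%, through 2 of 47 Malat1-null barcodes; without them it was at 0.0137%.

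In beta-like barcodes 33 of 1673 genes passed (1.97%, made of 0.418% higher and 1.55% lower), among them 3 hormones, all higher in Malat1-null: Gcg by 3.74-fold (3.61 to 3.87), Sst by 22.9-fold (19.9 to 26.4) and Pyy by 2.102-fold (2.06 to 2.14). Ppy had a ratio of 1.64. With only the barcodes high for the gene in question left out, the ratios were 4.32, 8.94, 3.53 and 2.36 for Gcg, Sst, Pyy and Ppy. Barcodes high only for another hormone stayed in. The ratio for Sst depended on which clusters count as beta-like. With the mixed beta and delta cluster counted in, as before the limit for mixed was lowered, Sst was at 0.0210% and 0.0852%, a ratio of 4.06 (3.99 to 4.14), while Gcg had 3.72, Pyy 2.27 and Ppy 1.65. In T or NK cell-like barcodes, with the values given above, each of the 4 genes was higher in Malat1-null with overlapping intervals. Sst differed least in ratio there (0.000915%, interval 0.000523 to 0.00149, and 0.00109%, 0.000437 to 0.00224). Other non-endocrine classes varied, on few UMIs. With barcodes high for the gene in question left out, Sst had ratios of 4.91 in ductal-like (16 and 7 UMIs), 1.47 in macrophage-like (1 and 5) and 0.23 in endothelial-like barcodes (9 and 1). Pyy had 0.62 in ductal-like and Ppy 0.81 in macrophage-like ones, while the other ratios of Gcg, Ppy and Pyy in these classes were above 1. Clusters differed too, since 530 of 909 wild-type beta-like barcodes lay in 1 cluster that held 61 of 1788 Malat1-null ones. The part of free RNA and of clusters in these ratios was not tested.

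Markers of other cells differed between the genotypes in the hormone classes. The 6 acinar markers summed to 649 and 40.0 CPM in alpha-like barcodes, to 975 and 224 CPM in delta-like ones and to 113 and 19.5 CPM in PP-like ones, with none of the 6 at 0. Ins2 in alpha-like barcodes was at 0.121% and 3.16%, of which 3 of 81 Malat1-null barcodes with 10% or more Ins2 carried most, leaving 0.609% without them. In PP-like barcodes Ins2 was at 0.0637% and 0.521%, or 0.319% without 1 such Malat1-null barcode. The 8 alpha markers summed to 873 and 3049 CPM in PP-like barcodes and to 279 and 664 CPM in delta-like ones. The 6 ductal markers summed to 2625 and 1716 CPM in alpha-like, 4814 and 2169 CPM in PP-like and 2499 and 2463 CPM in delta-like barcodes. Of the 6, 4 reached 20 CPM in each of these classes and libraries. Krt19 was at 0 in alpha-like barcodes of both libraries, wild-type PP-like and Malat1-null delta-like ones. Sox9 was at 0 in Malat1-null alpha-like and wild-type PP-like ones, so the sums came from other members of the list. Gcg in alpha-like barcodes below 10% Ins2 was at 17.2% in Malat1-null. Endothelial, T or NK and B cell markers summed to at most 38.8 CPM in these 3 classes. The part of these RNAs in the hormone ratios was not tested.

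**Figure D5:**
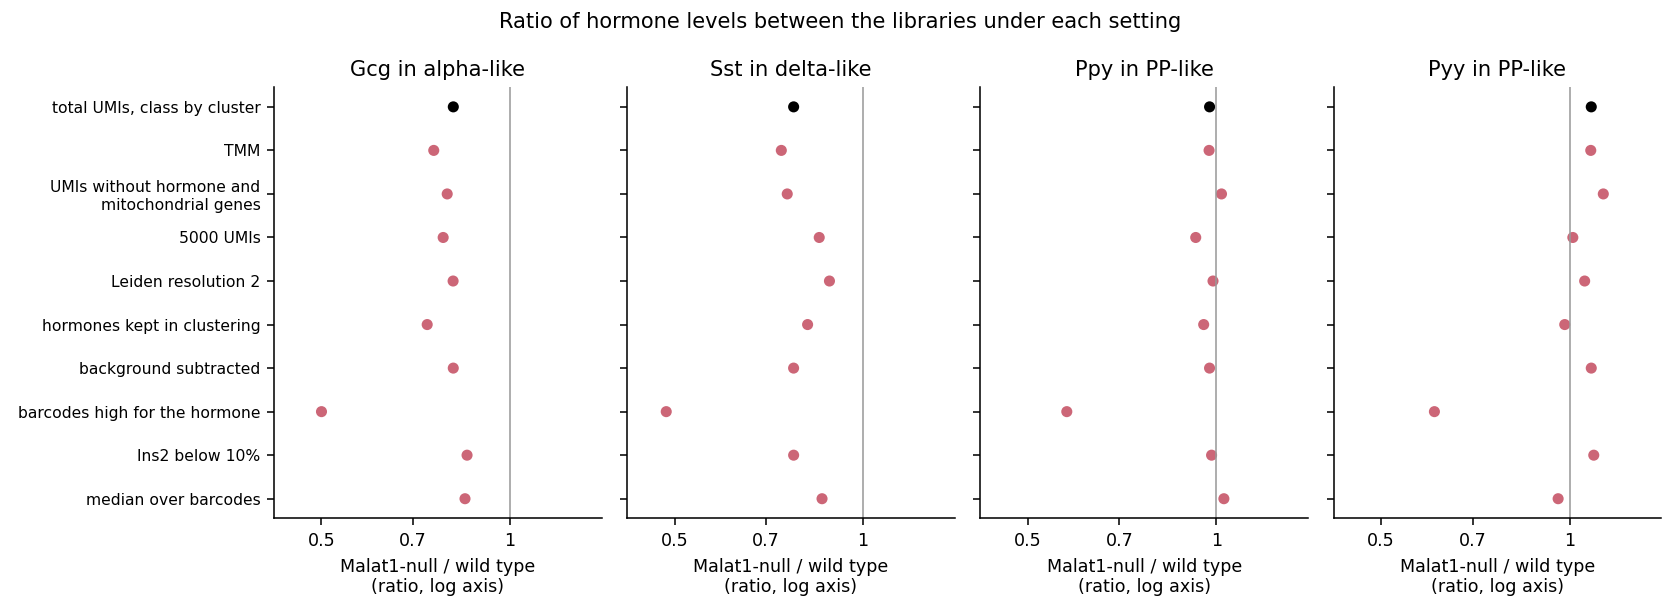
Ratio of the Malat1-null to the wild-type level (x axis, log scale) of Gcg in alpha-like, Sst in delta-like and Ppy and Pyy in PP-like barcodes; black points are the values in the text, whose counting intervals are narrower than the point, and red points other ways of processing. Gcg and Sst stayed below 1 in every setting drawn (0.5001 to 0.854 and 0.485 to 0.883), while Ppy and Pyy lay on both sides of 1.

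Genes whose levels followed a hormone most closely over barcodes were ranked by Pearson r of log2(UMIs per 10000 + 1) over 2166 and 3198 barcodes, among 11960 genes, taking the lower r of both libraries. Barcodes of a library share its preparation and differ in depth and cell class, so r is a description. Pyy was the closest gene to Ppy, and Ppy to Pyy (r = 0.863 and 0.834). The genes next closest to Ppy included Tspan8, Rbp4, Gpx3 and Calb1. Pyy was next followed by Rbp4, Gpx3, Tspan8, Etv1 and Calb1. Rbp4 encodes the retinol carrier of plasma, Gpx3 a secreted glutathione peroxidase and Calb1 a calcium-binding protein. Rbp4 was at 6948 and 6600 CPM in delta-like, 640 and 641 CPM in alpha-like and 292 and 437 CPM in PP-like barcodes.

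Gcg was most like Gpx3 (r = 0.784 and 0.773), followed by Eef1a2, Sfrp5, Kcnk3, Ttr and Irx2. Ttr, which encodes the thyroid hormone carrier transthyretin, was at 20511 and 13761 CPM in alpha-like barcodes, and Irx2, a homeodomain factor of alpha cells, at 84.2 and 99.2 CPM. Sst was most like Rbp4 (r = 0.800 and 0.827), followed by Ly6h, Arg1, Ptprz1, Ncam2 and Syt1. Arg1, an arginase, was at 491 and 499 CPM in delta-like barcodes, and Ly6h and Ptprz1 had 0 UMIs in alpha-like and PP-like barcodes of both libraries. Ttr, Irx2, Rbp4, Ptprz1, Tspan8 and Etv1 were among the markers used to name classes. Ghrl had too few UMIs in wild type to be ranked. Within classes Ppy and Pyy gave r of 0.710 and 0.669 over 37 and 81 alpha-like barcodes, 0.00635 and 0.699 over 26 and 28 PP-like ones, and -0.026 and 0.458 over 22 and 47 delta-like ones. Single barcodes weigh on the PP-like values. In Malat1-null 1 had both genes at 0.00701%, 1 had 5.96% Ppy with 0.169% Pyy, and 1 had 0.309% Ppy with 24.6% Pyy. The lowest Ppy share in wild type was 4.36%, and r without such barcodes was not computed. Ppy and Sst gave r of -0.50 and -0.42 over 22 and 47 delta-like barcodes.

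Genes that process these hormones were taken from a fixed list. Of 7 processing genes (Pcsk1, Pcsk2, Cpe, Pam, Scg5, Pcsk1n and Mboat4) 5 had enough UMIs in alpha-, PP- and delta-like barcodes and 6 in beta-like ones, and 0 passed 2-fold in either direction in any of these classes. Their median log2 ratio was 0.30 in alpha-like, 0.25 in PP-like, 0.07 in delta-like and -0.02 in beta-like barcodes, beside 0.21, 0.07, 0.11 and -0.17 for all genes tested there. Pcsk2, the convertase that cuts proglucagon to glucagon and prosomatostatin to somatostatin, was at 3338 and 4551 CPM in alpha-like barcodes. Pcsk1n, an inhibitor of Pcsk1, came nearest the limit there with a ratio of 1.88 (1.79 to 1.97). Pcsk1, which cuts proglucagon to GLP-1 in gut cells, was at 0 and 7.85 CPM in alpha-like and at 123 and 120 CPM in beta-like barcodes.

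Of 12 receptor genes for these hormones and the incretins, 0 had enough UMIs in alpha- and PP-like barcodes and 1, Glp1r, in delta- and beta-like ones, where its ratio was 1.13 (0.725 to 1.81) and 1.04 (1.02 to 1.06). Glp1r, the receptor of GLP-1, was at 54.0 and 61.2 CPM in delta-like and 274 and 286 CPM in beta-like barcodes; it is also a beta marker used in naming. Sstr3, a somatostatin receptor, was at 23.65 and 23.55 CPM in alpha-like and 23.5 and 22.9 CPM in beta-like barcodes. Ghsr, the ghrelin receptor and a delta marker, was at 22.6 and 20.1 CPM in delta-like barcodes. Gcgr, the glucagon receptor, was at 9.49 and 11.5 CPM in beta-like barcodes.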

How the data were processed

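The deposited values are raw UMI counts for every gene on every barcode, empty ones included, made by the authors with Cell Ranger 4 per the file headers, or Cell Ranger 2.1.0 on mm10 per the submitters' processing notes; which applies is not settled. Of 32285 gene IDs, 32158 were found in GENCODE M21. The DMSO libraries were not analysed here.

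Barcodes of at least 1000 UMIs from both libraries were clustered together (scanpy 1.11.5, igraph 0.11.9; 2000 variable genes, 30 principal components, 15 neighbours, Leiden resolution 1), without the 5 hormones, Ins1, Ins2, Iapp, Malat1, sex-linked and mitochondrial genes and without batch correction. Clusters were named from 14 marker lists by a score of at least 0.6 with 3 markers at 20 CPM. Clusters of 40 or more barcodes scoring for several hormone cell types were divided once at resolution 0.5. Clusters scoring for beta cells and at least 0.4 for alpha or delta cells, or for alpha and delta cells together, were called mixed. Clusters with low UMIs that no marker of their class led, or that scored for beta cells, stayed unnamed. These thresholds followed the sight of an initial clustering, and the mixed one was lowered from 0.5 when a cluster named beta was seen to lead with Rbp4 and Sst. Scrublet calls were kept and left out as an alternative. The Schwann, erythroid and granulocyte lists named no cluster.

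Shares of UMIs have exact Poisson intervals, shares of barcodes exact binomial ones and ratios exact conditional ones (scipy 1.17.1). The ratio rule was tested on simulated counts. Members and lists were chosen with earlier results of these data known. Genes named are the 5 members, Ins1, Ins2 and Iapp, the 6 genes most alike to each member with at least 100 UMIs in each library, the 3 leading genes of clusters where a member was highest, and fixed processing and receptor lists. A gene alike to Ppy is not reported here. Alternatives were other barcode and hormone limits, thinning to 1000 UMIs, TMM scaling (edgeR 4.0.16, R 4.3.3), other denominators and other clusterings.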

Additional observations from a re-analysis of the deposited data

How the results depend on the processing

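No paired analysis was possible because each genotype had 1 library, and no replicate could be left out for the same reason. In all these lists wild type comes first. With a minimum of 5000 UMIs per barcode the shares of UMIs were Gcg 0.351% and 0.355%, Sst 0.111% and 0.173%, Ppy 0.608% and 0.636%, Pyy 0.288% and 0.358%. Counted over UMIs without the insulin, amylin, member and mitochondrial genes they were Gcg 0.672% and 0.884%, Sst 0.213% and 0.434%, Ppy 1.16% and 1.58%, Pyy 0.549% and 0.891%, Ghrl 2.78e-05% and 0.0162%, and Gcg and Ppy, near equal between the libraries on total UMIs, were then higher in Malat1-null.

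At a limit of 3% in place of 1%, Malat1-null lost a larger share of its Gcg-, Sst-, Ppy- and Pyy-high barcodes than wild type: Sst was high on 61 barcodes, Ppy on 87 and Pyy on 120. Pairs then counted 7 for Gcg with Sst, 23 for Gcg with Ppy (12 in wild type), 36 for Gcg with Pyy, 19 for Sst with Ppy, 44 for Sst with Pyy and 69 for Ppy with Pyy. Leaving out barcodes with 10% or more Ins2, an alternative chosen after seeing the data, left 103 Gcg-high, 57 Sst-high, 90 Ppy-high and 131 Pyy-high barcodes in Malat1-null, with 11 for Gcg with Sst and 56 for Sst with Pyy. Of 60 recounts of hormone-high barcodes 53 stayed within 1.5 times the value reported, and of 72 recounts of pairs 63 did, including each at 0.3%, at 5000 UMIs, thinned to 1000 UMIs and without Scrublet calls.

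The ratio of Gcg in alpha-like barcodes was 0.756 with TMM, 0.794 without the hormone and mitochondrial genes, 0.782 at 5000 UMIs, 0.738 with hormones kept in the clustering, 0.5001 over all barcodes high for the hormone, 0.854 below 10% Ins2, 0.848 for the median barcode. That of Sst in delta-like barcodes was 0.740 with TMM, 0.756 without the hormone and mitochondrial genes, 0.851 at 5000 UMIs, 0.883 at Leiden resolution 2, 0.815 with hormones kept in the clustering, 0.485 over all barcodes high for the hormone, 0.860 for the median barcode. That of Ppy in PP-like barcodes was 1.02 without the hormone and mitochondrial genes, 0.927 at 5000 UMIs, 0.988 at Leiden resolution 2, 0.954 with hormones kept in the clustering, 0.577 over all barcodes high for the hormone, 0.983 below 10% Ins2, 1.03 for the median barcode. That of Pyy there was 1.13 without the hormone and mitochondrial genes, 1.01 at 5000 UMIs, 1.06 at Leiden resolution 2, 0.982 with hormones kept in the clustering, 0.608 over all barcodes high for the hormone, 1.09 below 10% Ins2, 0.959 for the median barcode. The ratio for the median barcode was also chosen after seeing the data. Counting the mixed beta and delta cluster as beta-like, likewise chosen afterwards, took the beta-like ratio of Sst from 22.9 to 4.06. In PP-like barcodes Ppy thus turned direction in 2 settings and Pyy in 3, and the cause was not tested. At 20 CPM in place of 50, 38 genes were higher in Malat1-null alpha-like barcodes and 50 lower in beta-like ones, against 24 and 26. With 22 to 37 wild-type barcodes in a class, single barcodes decide values such as Ghrl and Sst in PP-like and Gcg in delta-like barcodes, and 1 library per genotype gives no spread between mice.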
